A study of Mus musculus with 14 samples.

Results

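The genes described here encode 8 cell surface adhesion molecules: *Vcam1*, *Icam1*, *Icam2*, *Alcam* and *Ncam1* of the immunoglobulin superfamily, the selectins *Selp* and *Sele*, and the hyaluronan receptor *Cd44*. All probes that the array files assign to these gene names were taken, which gave 21 of the 41174 probes and 8 of the 27962 gene names on the array. *Ncam1* had 8 of these probes, *Vcam1* and *Cd44* had 3 each, *Icam1* and *Selp* 2 each, and *Icam2*, *Alcam* and *Sele* 1 each. Of the 21 probes, 19 from 7 genes were measured well enough to be tested.

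Leukocytes leave the blood by first rolling on selectins and then binding firmly, through their integrins, to VCAM-1 and the ICAMs on the vessel wall. Some of these molecules are also used by fibroblasts and other tissue cells to hold leukocytes. TNFα raises several of the adhesion molecules through NF-κB, a dimer in which p65 (RelA) carries a transactivation domain. *Vcam1*, *Icam1* and *Sele* are textbook NF-κB target genes.

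Expression was measured on 14 one-colour arrays in *p65*(-/-) mouse embryonic fibroblasts (NIH 3T3 MEFs), which all lack endogenous p65 and were complemented by lentivirus with wild type p65, the triple mutant KTR (K310/314/315R), the double mutant K314/315R or the empty vector pTV. In the mutants, lysines that can be acetylated were replaced by arginines. Each line was a pool of blasticidin-selected cells and not a single clone, and all cells were starved overnight. Wild type, KTR and pTV cells were measured on 3 arrays each after 3 h of TNFα at 30 ng/ml, K314/315R cells on 2, and wild type cells also on 3 arrays without TNFα (0 h). Unstimulated pTV or mutant cells were not analysed here. The wild type arrays at 3 h thus serve both as the cells with p65 and as the cells with TNFα, and every comparison below shares arrays with another.

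The value of a probe is called its level here. It is the log2 of the background-corrected intensity relative to the 75th percentile of the same array, so a level of 0 is as bright as that percentile, and levels of different probes are not compared. The 75th percentile lay between 967 and 1442 intensity units, 49.9% to 57.7% of the spots of an array were well above background, and 2 arrays of one group gave an r of 0.984 to 0.995 across probes, which are no independent replicates. On each of slides 1 to 3 lay 1 KTR array, 1 pTV array and 1 wild type array of each time. Both K314/315R arrays lay alone on slide 4, so for K314/315R slide and line cannot be told apart. KTR replicate 3 had 326 spots flagged as outliers, against 1 to 212 on the other arrays. For *Rela*, which encodes p65, the brighter of 2 probes had levels of 1.52, 1.52 and 1.54 in wild type cells at 3 h and of 1.00, 1.19 and 1.34 in pTV cells. Wild type cells at 0 h, which also carry the introduced p65, had 1.04, 0.97 and 1.03. KTR cells had 1.39, 1.54 and 0.79, and K314/315R cells 1.54 and 1.87. It is not known whether this probe reads the disrupted gene, the introduced one or both, so it does not check the labels.

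The cell type was compared with marker genes. Of 12 fibroblast markers, 11 were well above background on all 14 arrays, *Pdgfrb* being so on 13. Of 9 endothelial markers with a probe, 0 were well above background on all arrays. *Erg* was so on 10, *Cldn5* on 3, and *Vwf* and *Emcn* on 1 each. The mean level of *Erg* was −2.80 in wild type at 0 h, −4.18 in wild type at 3 h and −4.62 in pTV. The other 5 endothelial markers were well above background on no array, namely *Pecam1*, *Cdh5*, *Kdr*, *Tek* and *Tie1*. *Ptprc*, the gene of CD45 on leukocytes, was also well above background on no array, as were 3 of 8 leukocyte markers in all, while *Cd3e* was so on all 14. The summed linear level of the endothelial list ranged from 0.158 to 0.221 in pTV, 0.284 to 0.301 in wild type at 0 h and 0.181 to 0.231 in wild type at 3 h. That of the leukocyte list ranged from 0.425 to 0.816, 0.328 to 0.438 and 0.360 to 0.440 in the same groups. Of 5 epithelial markers with a probe, 1 was well above background on all arrays and 3 on none, and their sum was 0.317 to 0.388 in pTV, 0.255 to 0.261 in wild type at 0 h and 0.177 to 0.216 in wild type at 3 h. Some markers set the pTV line apart. The mean level of *Pdgfra* was −0.60 in pTV against 1.17 in wild type cells at 3 h, and that of *Pdgfrb* 3.14 against 5.13. That of the keratin gene *Krt18* was −2.94 against −5.46, while *Krt8* differed less, at −2.48 against −2.88. Other fibroblast markers were higher in pTV, *Thy1* at 1.91 against 0.72 and *Fn1* at 5.91 against 5.40. The summed linear level of the fibroblast list overlapped, at 699 to 887 in pTV and 712 to 831 in wild type cells at 3 h. The part of such differences between the lines in the results below was not tested.

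Wild type and pTV cells at 3 h of TNFα were compared to find which adhesion genes depend on p65 under TNFα. *Icam1*, *Sele*, *Vcam1* and *Selp* were all higher with p65, with all arrays of the one line above all arrays of the other, while the brightest probes of *Cd44* and *Ncam1* overlapped and *Alcam* had lower arrays with p65, without a call. In the limma fit, 8 of the 19 tested probes were called higher at over 2-fold and an adjusted p under 0.05, and 0 lower. Over all 22172 tested probes, 3.59% were called higher and 1.46% lower. One of the 8, the dimmest *Vcam1* probe, passed the filter only through wild type cells at 3 h, where it is high, and without it 7 of 18 were called. With the normexp background correction fitted on all spots, 4 adhesion probes were called. The median log2 fold change of the 7 genes, by their brightest probe, was 1.71, against −0.03 for all tested probes. As the values come from bulk RNA, fewer cells that express a gene and less of its RNA per cell cannot be told apart.

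TNFα was compared with no TNFα in wild type cells to find which of the genes respond within 3 h. Here 5 genes rose, *Icam1*, *Sele*, *Selp*, *Vcam1* and *Cd44*, while *Ncam1* and *Alcam* had log2 fold changes of −0.10 and 0.07. At a fold over 1.8, limma called 10 of the 19 tested probes higher (adjusted p under 0.05) and 0 lower, against 1.12% called higher and 0.428% called lower among all tested probes. Without the dimmest *Vcam1* probe 9 of 18 were called. Every one of the 10 probes had all 3 arrays at 3 h above all 3 arrays at 0 h. The median over the 7 genes was a log2 fold change of 1.22, against −0.04 for all tested probes. Only 1 of the 10 was still called with the normexp background correction on all spots, the *Selp* probe with 10 spots, whereas 9 were called with a normexp correction estimated from the negative control spots, which was added after the data had been seen.

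**Figure D1:**
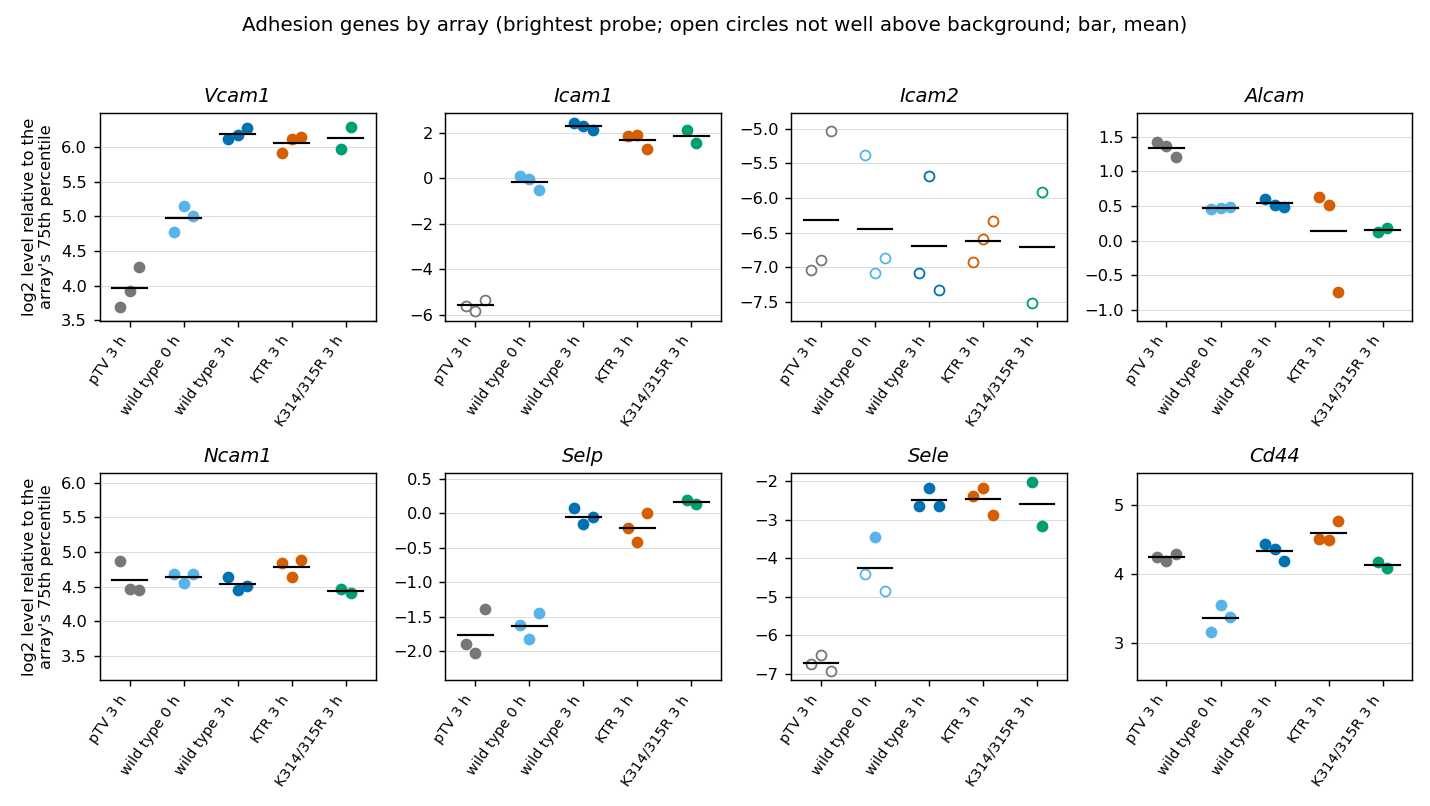
Levels of the 8 adhesion genes (log2 of the intensity relative to the 75th percentile of the array, brightest probe of each gene, a separate axis per gene) in each of the 14 arrays by group, with bars for the group means and open circles for arrays on which the probe was not well above background. *Icam1* is not well above background in all 3 pTV arrays and between −0.51 and 0.10 in wild type cells at 0 h, *Selp* is as low at 0 h as in pTV cells, and *Cd44* is low only at 0 h among these 5 groups.

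*Vcam1* encodes the ligand of the α4β1 integrin VLA-4. Its brightest probe had levels of 6.13, 6.17 and 6.27 in wild type cells at 3 h, 4.78, 5.14 and 5.0 in wild type cells at 0 h, and 3.69, 3.92 and 4.27 in pTV cells at 3 h. The 3 groups formed separate steps without overlap, with pTV cells lowest in spite of TNFα. With p65 it was 4.69-fold higher, by 2.23 on the log2 scale (standard error 0.15, limma adjusted p = 9.69e-07), and within slides 1 to 3 by 2.00 to 2.43. With TNFα it rose 2.32-fold in wild type cells, by 1.22 on the log2 scale (standard error 0.15, adjusted p = 7.70e-04) and by 1.03 to 1.35 within slides. A fitted difference from unstimulated wild type to pTV cells would mix p65 and TNFα, so only the means are given, 4.97 ± 0.18 and 3.96 ± 0.29 (SD, n = 3 each).

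A second *Vcam1* probe gave the same order of these groups with another size. This dimmer of the 2 probes measured on all arrays had levels of 4.99, 4.58 and 4.68 in wild type cells at 3 h, 3.78, 3.24 and 3.50 at 0 h, and 1.37, 0.93 and 1.02 in pTV cells. Again no array of one group reached another group. Its fold over pTV, 12.5 (log2 fold change 3.64, adjusted p = 6.33e-08), was larger than that of the brightest probe, while TNFα raised both alike, this one 2.36-fold (log2 fold change 1.24, adjusted p = 0.00182). The other *Vcam1* probe was well above background only on the 3 wild type arrays at 3 h and on 1 K314/315R array, so it was tested only because it is high in wild type cells, and no p is given for it. The fold over pTV that it allows is at least 1.06-fold, its call was lost with both normexp corrections, and no fold is given over 0 h.

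*Icam1* is the gene of the ligand of the leukocyte integrins LFA-1 and Mac-1. Against pTV it had the largest fitted difference of the 7 measured genes. As *Icam1* and *Sele* have only bounds there, the sizes for these 2 genes cannot be ranked. With TNFα *Icam1* also had the largest fitted difference. Its brightest probe is printed 10 times on each array and gave levels of 2.44, 2.30 and 2.12 in wild type cells at 3 h, 0.10, −0.03 and −0.51 in wild type cells at 0 h, and −5.60, −5.85 and −5.34 in pTV cells. All 3 pTV arrays were not well above background at this probe, so the level in pTV cells is only an upper bound, and unstimulated cells with p65 were well above it. With the background correction of the scanner files, the level with p65 was at least 132-fold higher than without. The fitted difference had an adjusted p of 5.69e-10, while the bound itself was not tested. This bound holds for that correction alone, as the fitted fold was 68.0 with normexp from the negative controls and 27.8 with normexp on all spots, both still called. TNFα raised *Icam1* 5.41-fold in wild type cells, by 2.43 on the log2 scale (standard error 0.22, adjusted p = 8.25e-05) and by 2.33 to 2.64 within slides. The single-spot probe rose by 2.66 on the log2 scale with TNFα (adjusted p = 8.25e-05). It was at least 13.3-fold higher with p65 than without (adjusted p of the fitted difference = 1.37e-08). For the latter the fitted fold was 9.40 with normexp from the negative controls, and 5.55 with normexp on all spots, where the call was lost (adjusted p = 0.0737).

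The 10 spots of this *Icam1* probe give its technical spread within an array. Their coefficient of variation had a median of 2.71% over the 11 arrays on which the probe was well above background, and was 23.3% on KTR replicate 3, where the spots ranged from 1438 to 3599 intensity units. On pTV arrays 0 to 2 of the 10 spots were well above background. The other members printed 10 times had medians of 4.34% for a *Cd44* probe, 5.67% for a *Selp* probe and 7.15% for a *Ncam1* probe. These values describe spots of the same array and not the spread between samples.

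*Sele* encodes E-selectin, which endothelial cells display after cytokine stimulation. Its only probe had levels of −2.64, −2.19 and −2.64 in wild type cells at 3 h, −4.42, −3.44 and −4.86 at 0 h, and −6.75, −6.51 and −6.92 in pTV cells. It was well above background on all arrays at 3 h with p65, on 1 of 3 arrays at 0 h and on no pTV array, and the groups did not overlap. With the background correction of the scanner files, the level with p65 was at least 4.82-fold higher than without (adjusted p of the fitted difference = 5.25e-06). The fitted fold was 3.61 with normexp from the negative controls, and 2.86 with normexp on all spots, where the call was lost (adjusted p = 0.602). The fitted TNFα response was 3.36-fold (log2 fold change 1.75, standard error 0.36, adjusted p = 0.0153), over a 0 h group with 1 array well above background, and 2.07-fold with normexp from the negative controls (adjusted p = 0.0118). With normexp on all spots that call was lost too (adjusted p = 0.594). It was also lost without wild type 3 h replicate 2 (log2 fold change 1.60, adjusted p = 0.0697), without wild type 0 h replicate 1 (1.66, adjusted p = 0.0662) and without wild type 0 h replicate 3 (1.44, adjusted p = 0.0689).

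*Selp* encodes P-selectin, best known from the granules of platelets and endothelial cells. Its 10-spot probe was well above background on all arrays, with levels of 0.07, −0.16 and −0.06 in wild type cells at 3 h, −1.61, −1.82 and −1.44 at 0 h, and −1.89, −2.02 and −1.38 in pTV cells. Unlike for *Vcam1*, *Icam1* and *Sele*, the arrays of unstimulated wild type cells and of pTV cells overlapped here, at means of −1.63 ± 0.19 and −1.76 ± 0.33 (SD, n = 3 each). Wild type cells at 3 h stood 3.28-fold above pTV cells (log2 fold change 1.71, standard error 0.17, adjusted p = 1.66e-05) and 2.98-fold above wild type cells at 0 h (1.58, standard error 0.17, adjusted p = 2.49e-04). The other *Selp* probe gave 1.51 (adjusted p = 0.00149) and 1.39 (adjusted p = 0.00892) for the same log2 fold changes. Of the called TNFα responses, that of the 10-spot probe kept its call under every alternative run, with adjusted p-values up to 0.0251.

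**Figure D2:**
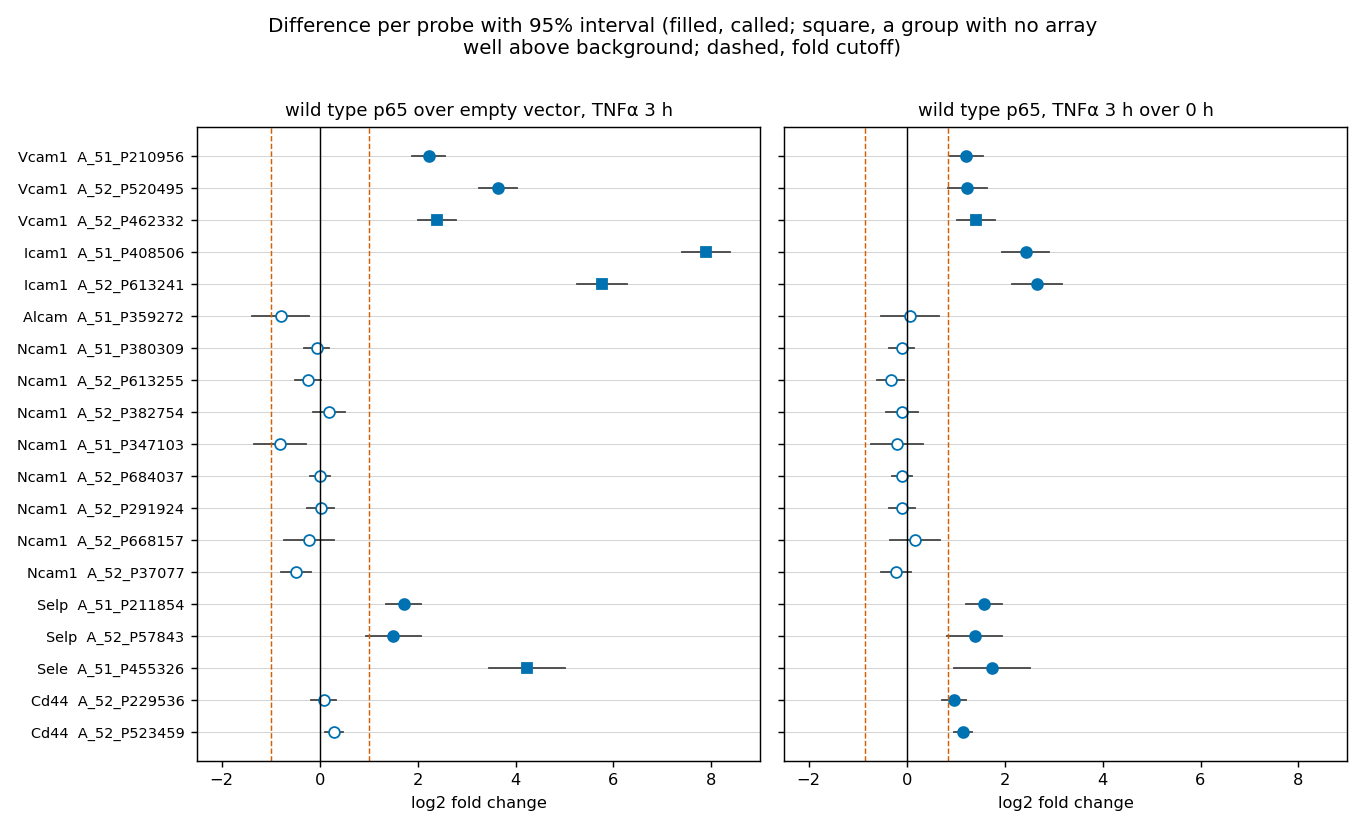
Log2 fold changes (x axis) of the 19 tested probes with 95% intervals from the limma fit, for wild type over pTV at 3 h of TNFα and for 3 h over 0 h of TNFα in wild type cells. The 8 filled points on the left panel and the 10 on the right are called, all to the right of 0, and squares mark probes for which no array of a group was well above background, so that the point is not a measured size.

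The sequence before the start of *Icam1*, *Sele* and *Selp* is shown because these 3 genes were called in both comparisons and their promoters were in the RefSeq promoter table used (build GRCm38.p6), which held 5 of the 8 genes. Printed are the 250 bases before the start, 5′ to 3′ on the strand of the gene, which is the plus strand for all 3. Capitals mark matches on either strand to GGNNTTTCC, a short form of a κB site, or to TGANTCA, the AP-1 motif, and no match overlapped another. The positions are chr9:21015690-21015939 for *Icam1*, chr1:164047984-164048233 for *Sele* and chr1:164115014-164115263 for *Selp*.
Icam1: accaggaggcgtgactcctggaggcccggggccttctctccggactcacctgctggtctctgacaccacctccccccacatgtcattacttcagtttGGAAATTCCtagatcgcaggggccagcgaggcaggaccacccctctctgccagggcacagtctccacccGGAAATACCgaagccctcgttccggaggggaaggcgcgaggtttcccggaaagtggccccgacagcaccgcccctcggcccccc
Sele: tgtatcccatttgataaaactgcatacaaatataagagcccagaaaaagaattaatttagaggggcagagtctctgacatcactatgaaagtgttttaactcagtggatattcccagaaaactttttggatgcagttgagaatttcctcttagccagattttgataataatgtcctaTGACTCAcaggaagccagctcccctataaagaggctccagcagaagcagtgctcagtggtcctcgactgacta
Selp: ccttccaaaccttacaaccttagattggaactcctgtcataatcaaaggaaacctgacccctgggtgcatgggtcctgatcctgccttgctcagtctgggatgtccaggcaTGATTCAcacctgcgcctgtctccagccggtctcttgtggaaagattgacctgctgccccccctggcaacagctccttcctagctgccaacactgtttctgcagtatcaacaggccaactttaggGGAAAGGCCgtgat

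The *Icam1* promoter held 2 matches to GGNNTTTCC, which read GGAAATTCC (153 to 145 bases before the start) and GGAAATACC (84 to 76 bases before) in the printed strand. *Selp* held 1 match to it, close to the start, and 1 to TGANTCA, and *Sele* held 1 match to TGANTCA at 73 to 67 bases before its start. The search covered the 250 bases before to 50 after the start, also for the NF-κB consensus and for the interferon response motif (ISRE core). Among 32851 promoters of this length, 5.82% held GGNNTTTCC, 7.81% TGANTCA, 4.51% the NF-κB consensus and 3.44% the interferon response motif. The windows of *Cd44* and *Alcam* held none of the 4. A match is a stretch of letters and not a binding site, and sites farther from the start lie outside these windows.

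*Cd44*, the receptor for hyaluronan, was raised by TNFα, and its brightest probe was not called between wild type and pTV cells. That probe had levels of 4.44, 4.36 and 4.19 in wild type cells at 3 h, 3.17, 3.56 and 3.37 at 0 h, and 4.25, 4.20 and 4.29 in pTV cells. All arrays at 3 h, with or without p65, thus lay above those at 0 h, and wild type overlapped with pTV. TNFα raised it 1.95-fold in wild type cells, by 0.97 on the log2 scale (standard error 0.12, adjusted p = 5.84e-04), and its log2 difference from pTV was 0.09 (95% interval −0.17 to 0.34, adjusted p = 0.729). The 10-spot probe had levels of 3.34, 3.31 and 3.30, of 2.24, 2.07 and 2.17, and of 2.93, 3.01 and 3.16 in the same 3 groups. It rose 2.23-fold with TNFα (log2 fold change 1.16, adjusted p = 1.73e-05) and was 1.22-fold higher with p65 than without (log2 fold change 0.29, adjusted p = 0.0407), short of the fold cutoff. The remaining *Cd44* probe had no array well above background. Whether TNFα also raised *Cd44* without p65 cannot be read from these groups, since pTV cells at 0 h were not analysed here.

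*Ncam1*, the neural cell adhesion molecule that binds to itself on neighbouring cells, did not pass the cutoffs in either comparison by any of its 8 probes. The brightest lay between 4.45 and 4.64 in wild type cells at 3 h, 4.56 and 4.69 at 0 h, and 4.45 and 4.87 in pTV cells, so that all groups overlapped. Its log2 fold change over pTV was −0.06 (95% interval −0.32 to 0.20, adjusted p = 0.818), and with TNFα it was −0.10 (−0.37 to 0.16, adjusted p = 0.754). A probe of a lower level, A_51_P347103, stood out with −1.61, −1.44 and −1.09 in wild type cells at 3 h and −0.09, −0.75 and −0.86 in pTV cells. It was lower with p65 by 0.81 on the log2 scale (0.570-fold, adjusted p = 0.0429), within the fold cutoff. The difference varied widely between slides, from −1.52 on slide 1 to −0.22 on slide 3. A_52_P37077 was also lower with p65, at a log2 fold change of −0.49 (adjusted p = 0.0361), again within the fold cutoff. The 8 probes of this gene did not all agree, with log2 fold changes over pTV from −0.81 to 0.20.

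*Alcam*, whose protein binds CD6 on T cells and pairs with itself, was the only one of the 7 measured genes with a lower mean in wild type than in pTV cells on all arrays by its brightest probe. Its levels were 0.60, 0.52 and 0.49 in wild type cells at 3 h, 0.46, 0.47 and 0.48 at 0 h, and 1.42, 1.37 and 1.21 in pTV cells. The wild type arrays hardly varied between 0 h and 3 h, and every pTV array lay above them. Between wild type and pTV the log2 difference was −0.80 (95% interval −1.38 to −0.21, adjusted p = 0.0711), and it lay between −0.85 and −0.72 within slides 1 to 3. With the replicate block, under which the arrays of slides 1 to 3 pair, the adjusted p was 0.0380 at the same difference, which does not reach 2-fold. *Icam2*, the gene of a further LFA-1 ligand that is known from resting endothelium, was well above background on none of the 14 arrays, with levels from −7.52 to −5.02, and no comparison was made for it.

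The mutants were compared with wild type cells at 3 h of TNFα to find whether the lysines that were changed are needed for these genes. At the ratio used (over 1.8 either way), limma called 0 of the 19 probes in KTR over wild type and 0 in K314/315R over wild type (adjusted p under 0.05), and 4 and 3 of them had an unadjusted p under 0.05. Over all tested probes 0.0271% were called higher and 0.14% lower in KTR, and 0.167% and 1.04% in K314/315R. The median log2 fold change of the 7 genes was −0.13 in KTR and −0.10 in K314/315R, against 0.06 and 0.02 for all tested probes. A p above the threshold does not show equal levels, and the intervals below give the differences that remain possible.

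*Vcam1* had levels of 5.91, 6.12 and 6.15 in KTR and 5.98 and 6.29 in K314/315R cells, against 6.13 to 6.27 in wild type. Both mutants overlapped with wild type cells. The log2 fold change was −0.13 for KTR (95% interval −0.46 to 0.20, adjusted p = 0.852) and −0.06 for K314/315R (−0.43 to 0.31, adjusted p = 0.903), so a change beyond the cutoffs lies outside both intervals. For the other *Vcam1* probe measured on all arrays these values were −0.07 (−0.46 to 0.32, adjusted p = 0.939) and −0.05 (−0.48 to 0.39, adjusted p = 0.934).

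*Icam1* was lower in both mutants on every array and by both probes, without a call. The 10-spot probe had levels of 1.85, 1.91 and 1.28 in KTR and 2.11 and 1.57 in K314/315R cells, all below the 2.12 to 2.44 of wild type. The gap between the lowest wild type array and the highest mutant array was small. The log2 fold change was −0.61 in KTR (0.657-fold, 95% interval −1.09 to −0.13, adjusted p = 0.40) and −0.45 in K314/315R (0.732-fold, −0.99 to 0.09, adjusted p = 0.381). The single-spot probe gave −0.71 (0.613-fold, adjusted p = 0.348) and −0.72 (0.606-fold, adjusted p = 0.178). Within slides the KTR difference of the 10-spot probe was −0.59, −0.39 and −0.84, the last on the slide of KTR replicate 3, whose 10 spots varied most. With the replicate block the single-spot probe was called in K314/315R, at −0.87 (adjusted p = 0.0201), although the replicate numbers of K314/315R were not shown to pair with the others. A decrease beyond the cutoff lies within the intervals of *Icam1* in both mutants.

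The selectins gave no call against wild type in either mutant. *Selp* had levels of −0.21, −0.42 and 0.01 in KTR and 0.18 and 0.14 in K314/315R cells by the 10-spot probe. The KTR arrays overlapped with wild type and the K314/315R arrays lay just above it, at log2 fold changes of −0.16 (95% interval −0.52 to 0.21, adjusted p = 0.828) and 0.21 (−0.20 to 0.62, adjusted p = 0.618). The other *Selp* probe went the opposite way in K314/315R, at −0.78 (−1.41 to −0.16, adjusted p = 0.179), so the 2 probes disagree there. *Sele* had −2.37, −2.17 and −2.87 in KTR and −2.03 and −3.15 in K314/315R cells, and its log2 fold changes of 0.02 (−0.75 to 0.80, adjusted p = 0.991) and −0.10 (−0.97 to 0.77, adjusted p = 0.929) have the widest intervals among the brightest probes.

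For *Cd44*, *Ncam1* and *Alcam* the mutants also gave no call against wild type. The brightest *Cd44* probe was 0.26 higher in KTR (95% interval 0.01 to 0.51, adjusted p = 0.527) and 0.19 lower in K314/315R on the log2 scale (adjusted p = 0.490), while its 10-spot probe was higher by 0.18 and 0.16 (adjusted p = 0.557 and 0.410). *Alcam* had levels of 0.64, 0.52 and −0.74 in KTR and of 0.12 and 0.19 in K314/315R cells. Replicate 3 of KTR alone set the lower mean of that line, and without it the log2 fold change of KTR over wild type turned from −0.40 to 0.04. The brightest *Ncam1* probe differed by 0.25 and −0.10 (adjusted p = 0.563 and 0.759).

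**Figure D3:**
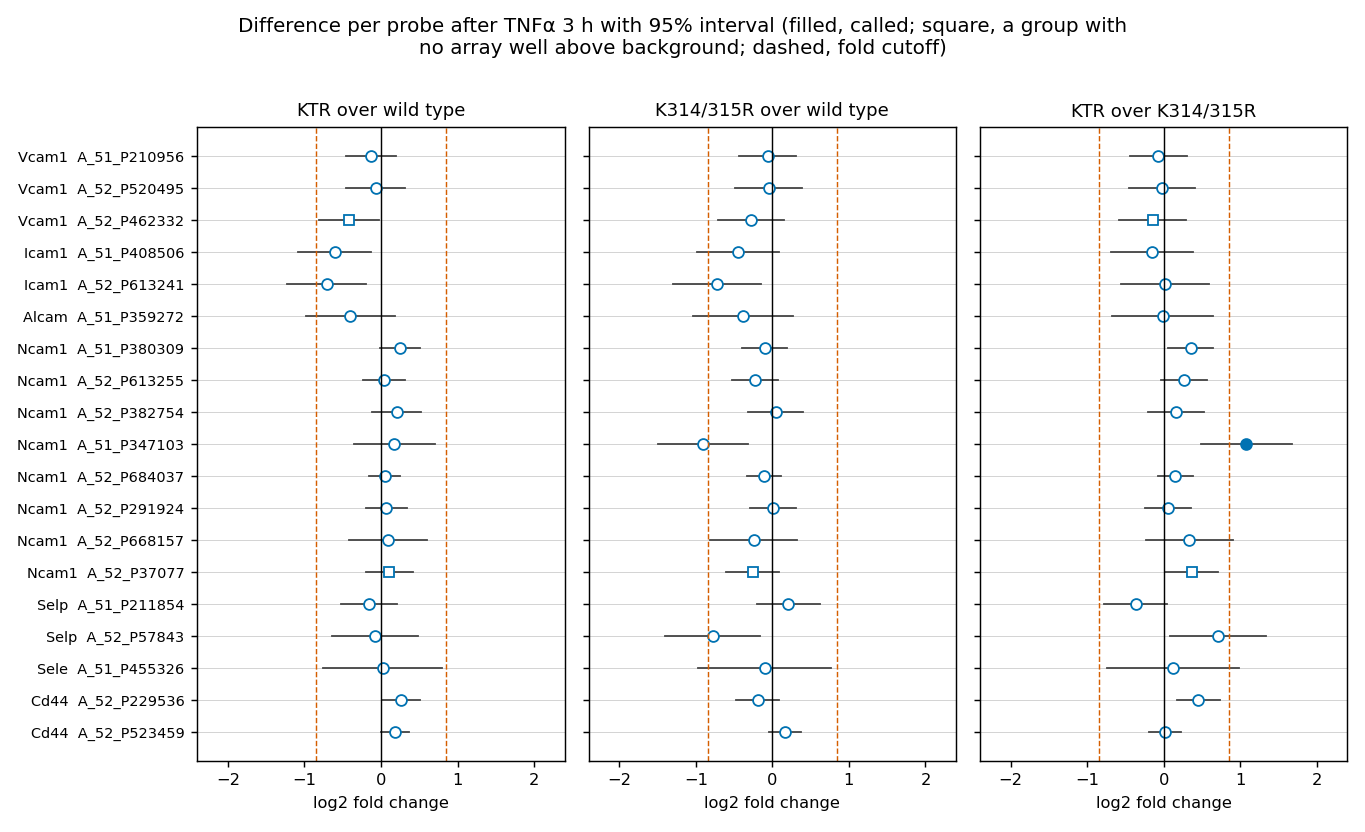
Log2 fold changes (x axis) of the 19 tested probes with 95% intervals for KTR over wild type, K314/315R over wild type and KTR over K314/315R, all at 3 h of TNFα, with the cutoffs as dashed lines. In the first 2 panels no point is filled and both *Icam1* probes lie left of 0, and the only filled point is that of the *Ncam1* probe A_51_P347103 between the mutants.

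Against pTV cells, both mutants had higher levels of the genes that were higher in wild type cells. In KTR over pTV, 8 of 19 probes were called higher and 1 lower, where 3.32% and 1.36% of all tested probes were called. In K314/315R over pTV, 7 were higher and 2 lower, against 4.18% and 4.68%. Without the dimmest *Vcam1* probe, which was well above background on no KTR and no pTV array, the probes called higher were 7 and 6 of 18. Among these, both *Icam1* probes and the *Sele* probe were also well above background on no pTV array. The higher probes were those of *Vcam1*, *Icam1*, *Selp* and *Sele*, except that the single-spot *Selp* probe was not called in K314/315R (log2 fold change 0.73, adjusted p = 0.0830). By the correction of the scanner files, *Icam1* was at least 86.9-fold higher in KTR and at least 96.8-fold higher in K314/315R than in pTV cells. The fitted differences, and not these bounds, had adjusted p-values of 1.16e-09 and 2.99e-09. The fitted folds of *Icam1* were 44.6 and 48.4 with normexp from the negative controls, and 21.57 and 23.01 with normexp on all spots. These calls were kept, but the *Icam1* bounds hold for the correction of the scanner files alone. With normexp on all spots, the calls of the single-spot *Icam1* probe were lost in KTR (log2 fold change 1.78, adjusted p = 0.254) and in K314/315R (1.76, adjusted p = 0.296). For *Sele* the bounds were at least 4.89-fold and at least 4.49-fold, and the fitted differences had adjusted p-values of 6.93e-06 and 2.00e-05. Its fitted folds with normexp from the negative controls were 3.78 and 3.56, and with normexp on all spots both calls were lost. The brightest *Vcam1* probe was 4.28-fold higher in KTR (adjusted p = 2.34e-06) and 4.50-fold higher in K314/315R (adjusted p = 4.49e-06). The 10-spot *Selp* probe was 2.94-fold higher in KTR (adjusted p = 4.81e-05) and 3.79-fold higher in K314/315R (adjusted p = 2.19e-05).

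*Alcam* was called lower than in pTV cells in both mutants, by 1.19 on the log2 scale in KTR (0.437-fold, adjusted p = 0.00977) and by 1.18 in K314/315R (0.441-fold, adjusted p = 0.0130). Without KTR replicate 3 the former was −0.76 (adjusted p = 2.65e-04), below the fold cutoff. Without K314/315R replicate 1 or 2, where the lone array was assumed to vary like the other groups, the latter was −1.15 and −1.21 with adjusted p-values of 0.0665 and 0.0634. The call in KTR was also lost with only KTR and pTV in the fit (−1.19, adjusted p = 0.108). With normexp on all spots it was lost in KTR (−1.33, adjusted p = 0.0546) and in K314/315R (−1.16, adjusted p = 0.139). All arrays with p65, wild type or mutant, at 0 h or at 3 h, lay below all 3 pTV arrays for this gene.

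Between the mutants, KTR over K314/315R, 1 of 19 probes was called higher and 0 lower, with 2.06% and 0.496% called among all tested probes, and 5 had an unadjusted p under 0.05. It was the *Ncam1* probe A_51_P347103, with levels of −1.36, −1.40 and −0.84 in KTR and −2.61 and −1.95 in K314/315R cells. All KTR arrays were higher, by 1.08 on the log2 scale (2.12-fold, adjusted p = 0.0411), and the adjusted p ranged from 0.0257 to 0.97 over the alternatives. The same probe was 0.305-fold as high in K314/315R as in pTV cells (log2 fold change −1.72, adjusted p = 7.67e-04). A_52_P37077 and A_52_P613255 were lower there too, at −0.74 and −0.46 (adjusted p = 0.00479 and 0.0293), within the fold cutoff. No K314/315R array was well above background at A_52_P37077. A_52_P382754 and A_52_P291924 went the other way, at 0.24 and 0.03. The 7 *Ncam1* probes other than A_51_P347103 differed between the mutants by 0.06 to 0.37 on the log2 scale without a call. *Cd44* came next among the brightest probes, at 0.45 (95% interval 0.17 to 0.74, adjusted p = 0.0664), but its 10-spot probe gave 0.02 (−0.19 to 0.22, adjusted p = 0.943).

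**Figure D4:**
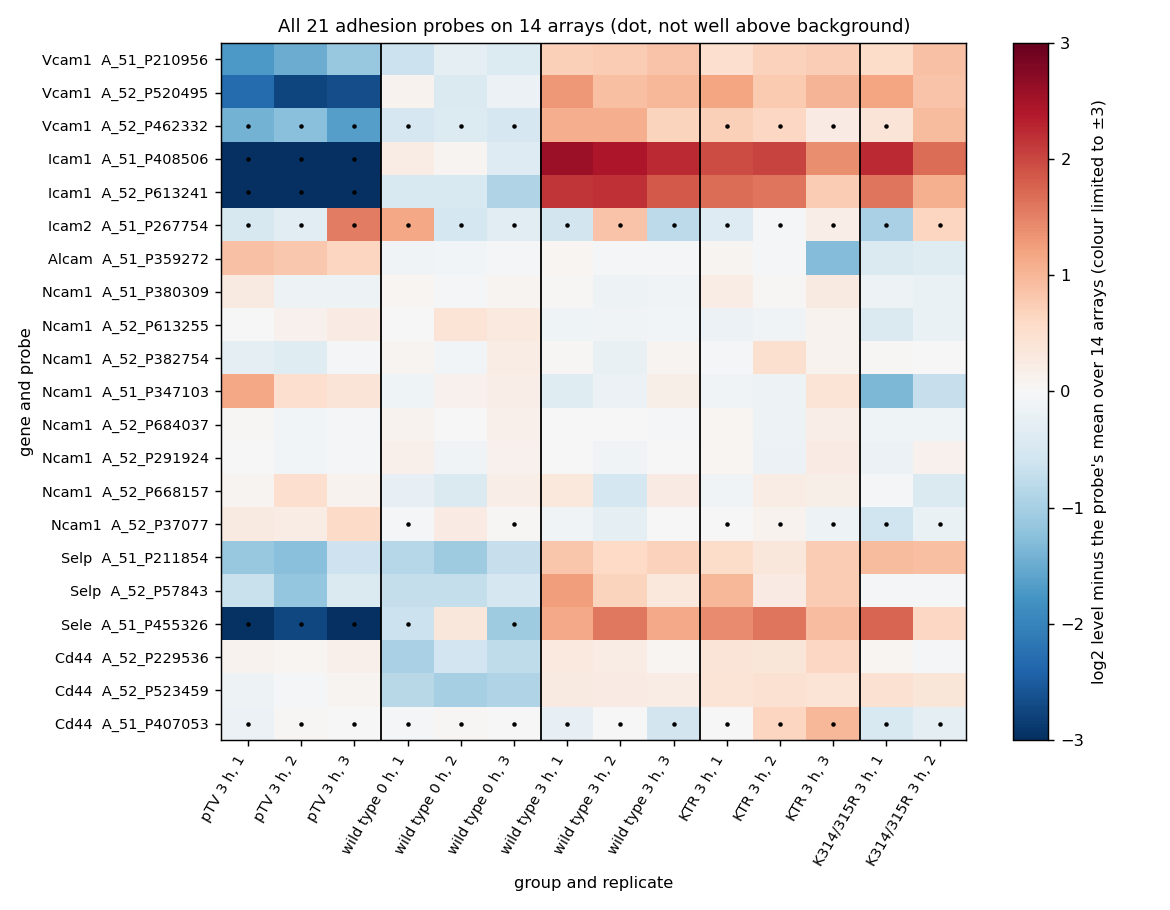
Level of each of the 21 adhesion probes (rows) on each of the 14 arrays (columns), as the log2 difference from the mean of that probe over all arrays, with colour limited to 3 either way and dots on arrays where the probe was not well above background. The 2 *Icam1* probes share their order of pTV, 0 h and 3 h of wild type, and the 2 *Selp* probes differ in K314/315R cells. The *Ncam1* probe A_51_P347103 varies most among the *Ncam1* probes, and *Alcam* is lowest on KTR replicate 3.

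Other adhesion genes were taken from a list of 53 that holds further immunoglobulin superfamily members, selectins and their ligands, integrin receptors of the genes above, cadherins, hyaluronan genes, and sheddases and linkers. Of these, 30 had a tested probe. In wild type over pTV, 3 were higher and 3 lower (16 with an unadjusted p under 0.05), where 3.59% and 1.46% of all tested probes were called. The median log2 fold change was −0.16, against −0.03 for all tested probes. With TNFα, 1 was higher and 0 lower (7 with an unadjusted p under 0.05), where 1.12% and 0.428% of all tested probes were called. The median was −0.03 against −0.04. In KTR and in K314/315R over wild type limma called 0 of the 30 (7 and 6 with an unadjusted p under 0.05).

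The higher genes included *Icam5*, the telencephalin gene (5.69-fold, adjusted p = 7.87e-07), and *Icam4*, known from red blood cells (2.28-fold, adjusted p = 0.00830). Both lie next to *Icam1* in the mouse genome, *Icam4* directly after it and *Icam5* after *Icam4*, and neither passed the cutoffs with TNFα, at log2 fold changes of 0.73 (adjusted p = 0.0282) and 0.40 (adjusted p = 0.509). *Cdh11*, the cadherin of mesenchymal cells, was 2.93-fold higher with p65 (adjusted p = 2.91e-07). Lower with p65 were *Mcam* (log2 fold change −1.62, adjusted p = 1.39e-05), which is also found on vessel walls, *Thy1* (−1.19, adjusted p = 8.53e-05), a fibroblast surface glycoprotein that is also on the fibroblast marker list, and *Cdh3* (−1.19, adjusted p = 1.92e-04), the P-cadherin gene. *Pvr*, the poliovirus receptor of the nectin family, was the gene raised by TNFα, 1.94-fold (adjusted p = 7.33e-04), and its mean level was 3.19 at 3 h and 2.24 at 0 h in wild type cells and 3.88 in pTV cells. The mean of *Pvr* was thus highest in the TNFα-treated cells that lacked p65, since KTR and K314/315R cells had 3.15 and 3.11. The 2 tested selectin ligand genes, 4 integrin genes, 2 hyaluronan genes and 5 sheddase or linker genes gave no call in either comparison.

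**Figure D5:**
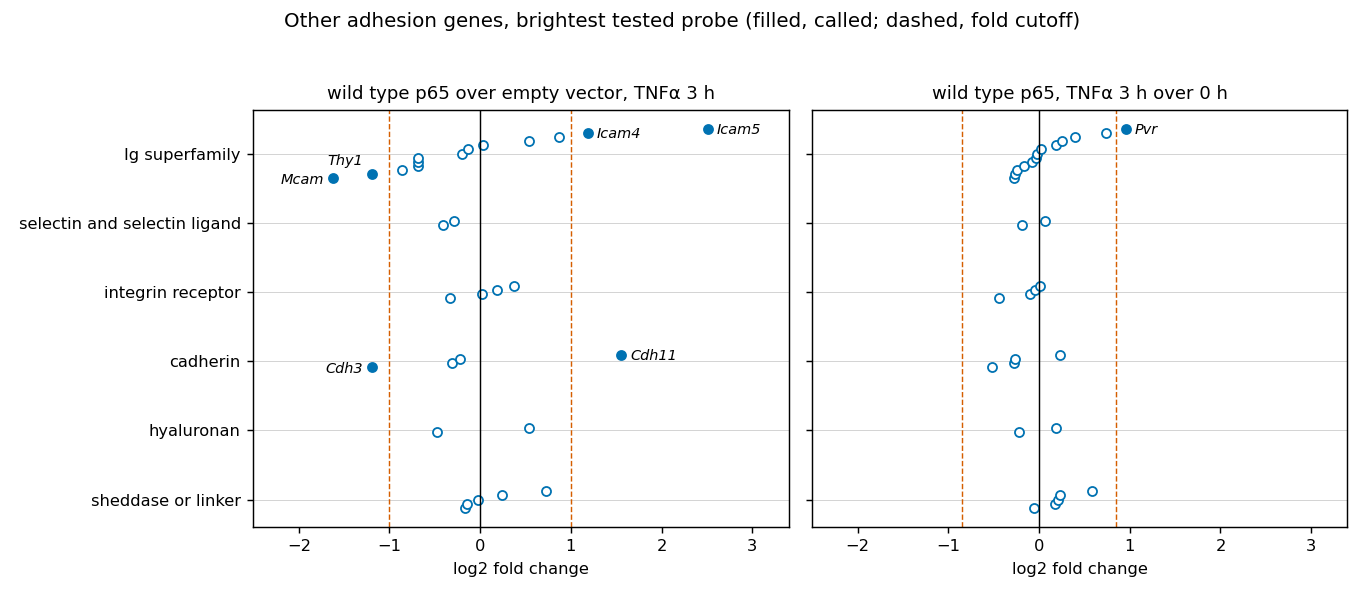
Log2 fold changes (x axis) of the 30 tested genes of the wider adhesion list by class, for wild type over pTV at 3 h and for 3 h over 0 h of TNFα in wild type cells, with the cutoffs as dashed lines. The 6 genes called on the left panel and *Pvr* on the right are filled and named, and the others lie between the cutoffs or did not pass the test.

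The genes with the pattern most like that of *Vcam1* over the 14 arrays were searched among 14388 gene names, by the correlation of the brightest probes. They were *Tnip1* (r = 0.988), *Slco3a1* (0.987), *Ripk2* (0.985), *Tnfaip2* (0.980) and *Card15* (0.979). For *Icam1* they were *Ccl20* (r = 0.997), *Slfn2* (0.996), *Cxcl11* (0.995), *Psmb10* (0.993) and *C630013B14Rik* (0.993). These values describe arrays that fall into a few groups and share slides, and *Icam1* and 4 of its 5 most alike genes were well above background on 11 of the 14 arrays.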

How the data were processed

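RNA of the 14 cell samples was isolated on different days and hybridised to Agilent one-colour mouse arrays. The authors' scanner files hold spot intensities extracted and background-corrected by Feature Extraction (version 9.1.1.1, for K314/315R 9.1.3.1), which were deposited without normalization between arrays. The deposited value table holds the same intensities times 1 factor per array (0.837 to 1.20, at least 99.6% of probes within 1%). Its column medians were 64.5 to 85.5, and how the factors were set is not known here. The paper's methods name Rosetta Resolver with default settings and a filter on low signals.

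Here spots flagged as outliers were dropped, processed signals of a probe averaged, and log2 values taken relative to the 75th percentile of each array. A probe was tested where all arrays of any 1 group had it well above background. The 14 arrays were fitted by group with limma 3.58.1 in R 4.3.3, two-sided, with Benjamini-Hochberg adjustment over the 22172 tested probes. Calls needed an adjusted p under 0.05 and over 2-fold against pTV or over 1.8-fold otherwise. A group with no array well above background has only a bound: the other group's mean over, per array, the higher of the lowest signal well above background and the probe's own. Each gene is led by its brightest probe, the other probes are given beside it, and of the wider adhesion list the called genes are named (at most 3 each way). Members and lists were chosen with earlier results of these data known. The paper calls the replicates independent and biological. The labels do not say that they are separate cultures, so p-values measure the spread between these samples. The number of arrays limits the precision. Deviations from the group means showed that numbers pair the arrays of slides 1 to 3 (18 same-number pairs, r 0.308 to 0.613, 36 others −0.510 to 0.0954), but not those of K314/315R (8 pairs, −0.101 to 0.411). The fit was tested on simulated data. Alternatives were background correction, normalization, probe filters, slide and replicate blocks, and leaving out each array.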

Additional observations from a re-analysis of the deposited data

Results flagged for a closer look

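The difference between the mutants was itself tested, and 1 adhesion probe passed. The *Ncam1* probe A_51_P347103 was higher in KTR than in K314/315R cells by 1.08 on the log2 scale (standard error 0.27, limma adjusted p = 0.0411), with levels of −1.36, −1.40 and −0.84 against −2.61 and −1.95. Against wild type, its log2 fold change was 0.18 in KTR and −0.91 in K314/315R. The call was lost in 15 of 24 alternatives, and the difference was 0.75 without K314/315R replicate 1 and 1.41 without replicate 2. The other 7 *Ncam1* probes were not called, and K314/315R was alone on its slide.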

How the results depend on the processing

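Of 56 fold changes tested under every alternative that could be run, 37 were called, 14 of them under all alternatives, and 851 of the 899 alternative values of the called ones were still called. With the normexp correction on all spots, whose fitted background mean was −1476 on wild type 3 h replicate 1 and −505 on pTV replicate 2 against −93.5 to 34.2 on the other arrays, the called adhesion probes fell to 4 in wild type over pTV, 1 with TNFα, 0 in KTR over K314/315R, 4 in KTR over pTV and 5 in K314/315R over pTV, and the other adhesion genes called with TNFα to 0. With normexp estimated from negative controls, chosen after seeing the data, these counts were 7, 9, 1, 8, 8 and 1. Restricting the test to probes that all arrays measured well above background, which leaves 14 adhesion probes and drops the brightest probes of *Icam1* and *Sele*, gave 4, 6, 5 and 5 calls in wild type over pTV, with TNFα, KTR over pTV and K314/315R over pTV. KTR over K314/315R gave 0 with quantile normalization, the deposited value table, only both groups in the fit and slide as a random block, and 2 when dim probes were kept. Leaving out 1 array gave 8 to 8 calls in wild type over pTV, 9 to 10 with TNFα, 0 to 1 in KTR over K314/315R, 8 to 9 in both mutants over pTV, 0 to 0 in both over wild type, and 1 to 2 other adhesion genes with TNFα. With 1 K314/315R array left out the lone array was assumed to vary like the other groups.

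With the replicate block, K314/315R over wild type gave 1 call, the *Icam1* probe A_52_P613241 at −0.87 (adjusted p = 0.0201), and with the paired fit no other count moved by over 1.5 times. At an unadjusted p, 1 probe was called in K314/315R over wild type, *Ncam1* A_51_P347103.

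Directions turned only where the log2 fold change was small or the probe dim. With normexp these were *Cd44* in wild type over pTV (−0.045), *Alcam* with TNFα (−0.0013), *Vcam1* (0.21) and *Sele* (−0.43) in KTR over wild type, *Vcam1* (0.10), *Ncam1* (0.26) and *Cd44* (0.070) in K314/315R over wild type, and the dim *Vcam1* probe in KTR over pTV (−0.059). *Sele* turned in KTR over wild type with quantile normalization (−0.0076), the value table (−0.022) and outlier spots kept (−0.021), and in K314/315R with quantile normalization (0.021). *Vcam1* turned in K314/315R over wild type with the replicate block (0.0067). Leaving out 1 array gave −0.13 to 0.22 for *Sele* and −0.65 to 0.041 for *Alcam* in KTR over wild type, −0.66 to 0.46 for *Sele* and −0.21 to 0.10 for *Vcam1* in K314/315R over wild type, and −0.13 to 0.075 for *Ncam1* in wild type over pTV. The cause was not tested. Signals near background limit *Icam1* and *Sele* in pTV cells.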
